A study of Mus musculus with 6 samples.

Results

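The uncoupling proteins and a set of brown fat marker genes were followed in white adipose tissue (WAT) from the abdomen of female mice. The 9 genes were Ucp1, Ucp2, Ucp3, Cidea, Dio2, Prdm16, Otop1, Kcnk3 and Cpn2, and all non-control probes carrying one of these names were taken from the arrays. This gave 12 of 41174 probes and 9 of 27670 gene names, with 3 probes for Ucp2, 2 for Kcnk3 and 1 for each of the others. All 12 probes passed the filter on dim probes (well above background on 3 or more arrays), so every member was measured.

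The arrays compared hNAG-1 mice with wild-type (WT) mice, both C57/BL6 females aged 30 wk. hNAG-1 mice carry a transgene for human NAG-1, also called GDF15, a circulating protein of the TGF-beta superfamily, which according to the methods is made in most tissues, WAT and brown fat among them, and only weakly in liver. The WAT came from 1 transgenic line, and each genotype had 3 arrays, each with total RNA pooled from 2 mice (6 mice a genotype). The study examined lifespan in hNAG-1 mice and what might underlie it, heat production and gene expression in WAT among others.

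Brown adipocytes burn fat to make heat, and UCP1 does this by letting protons leak across the inner mitochondrial membrane. Cold acts through noradrenaline, beta-adrenergic receptors and cyclic AMP, and through thyroid hormone made active in the cell by DIO2. White fat pads can hold scattered brown-like (beige) adipocytes, and their number differs between pads, animals and housing conditions. UCP2 and UCP3 belong to the same family of carriers but are not needed for heat production in the cold; UCP2 is found in many cells, including macrophages, and UCP3 mainly in skeletal muscle and brown fat.

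The probes on which the results turn are shown by their leading 30 of 60 bases as the array files give them, with positions on mouse build mm7, so that the Ucp2 and Kcnk3 probes can be seen to be different stretches of each gene. No base is in capitals here, since none was singled out.
Ucp1, A_51_P426353, chr8:81866808-81866867: ggaacgtcatcatgtttgtgtgctttgaac
Ucp2, A_51_P297105, chr7:96545541-96545600: ctcaaaagagccctaatggctgcctaccaa
Ucp2, A_52_P499675, chr7:96547222-96547281: cacagtgtgtccaatagctccttcactaga
Ucp2, A_52_P90265, chr7:96543013-96543072: cgtttctccaatttctctccatcttctggg
Kcnk3, A_52_P639402, chr5:29657234-29657293: ctgggaaatccttaggtggaaggaatctgg
Kcnk3, A_51_P292221, chr5:29655697-29655756: agacccctcacctccggagggaactaatgt
Otop1, A_51_P102538, chr5:37384894-37384953: ctcttttttgctacatctatatccagttcc
Cpn2, A_51_P170562, chr16:29929780-29929839: agatgacaaccgacaggcaagggatgctaa
The Ucp2 probes lie within 4209 bases of each other and the Kcnk3 probes 1537 bases apart. Ucp3 is the neighbour of Ucp2 on chromosome 7, and its probe (chr7:96532023-96532082) lies 10931 bases from the nearest Ucp2 probe. Which exon or untranslated region each probe lies in was not analysed here.

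The unit throughout is the log2 signal, that is log2 of the scanner's processed signal minus the array's 75th percentile, so that 0 is the brightness of the 75th percentile spot of that array. That percentile was a processed signal of 912.6 to 969.6 on the WT arrays and 628.8 to 858.2 on the hNAG-1 arrays, and 70.8% to 81.7% of probes per array were well above background. Of the 2 slides, the first held all 3 WT pools with hNAG-1 replicate 1, and the other only the remaining pair of hNAG-1 pools. A value within the shared slide therefore sets 1 hNAG-1 pool against 3 WT pools, and its p assumes that the lone pool varies as the WT pools do. The white adipocyte markers Adipoq (log2 signal 8.05 to 8.36) and Fabp4 (8.80 to 9.54) were bright on all 6 arrays, as the tissue label states. The listed brown adipocyte markers were read at very unequal levels. Lhx8 was well above background on 0 of 6 arrays. Zic1 was well above background on 2 WT arrays and 1 hNAG-1 array and ranged from -7.92 to -4.20. Others were brighter, with Elovl3 from -1.96 to 0.51, Cox8b from 3.61 to 5.09 and Cidea from 4.09 to 6.38. The tissue is a mixture of cells, and fewer cells of a type cannot be told apart here from less RNA per cell.

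None of the 9 members passed the adjusted test between genotypes. By the brightest probe of each gene, Ucp2 was lower and Kcnk3 higher in every hNAG-1 pool than in any WT pool. The dimmer Kcnk3 probe overlapped between genotypes. Ucp1, Otop1 and Cpn2 varied far more between pools of the same genotype than between the genotypes, and Cidea did so among the WT pools. Genotypes were compared with limma over 21057 genes, each represented by its brightest probe, and 0 of them (0%) passed an adjusted p of 0.05. At an unadjusted p under 0.05 there were 2 members of 9, beside 12.5% of all genes; Kcnk3 was on the higher side, which held 8.46% of genes, and Ucp2 on the lower side, which held 4.08%. The arrays of the genotypes did not overlap for the same 2 members, beside 20.2% of all genes (13.7% with hNAG-1 higher and 6.57% with hNAG-1 lower). The log2 fold change (hNAG-1 against WT) was above 0 for 3 members and below 0 for 6. Over all 21057 genes it was above 0 for 12413 and below 0 for 8644. Its median was -0.17 for the members, beside 0.06 over all genes. With 3 pools of a genotype, the number of arrays limits the precision.

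**Figure D1:**
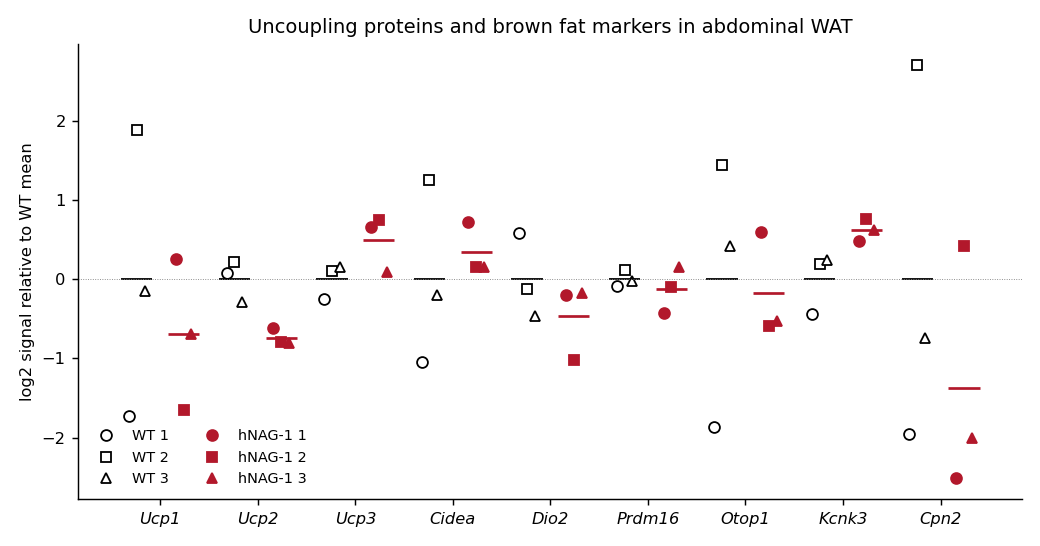
Log2 signal of the 9 members, each by its brightest probe, relative to the WT mean. Open symbols are WT pools and filled ones hNAG-1 pools, the shape marks the replicate number, and lines are means of 3 arrays; Ucp2 and Kcnk3 show no overlap between genotypes, and WT replicate 2 is the highest WT point for Ucp1, Cidea, Otop1 and Cpn2.

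Ucp1, which makes the uncoupling protein of brown and beige adipocytes, was measured on every array but at very different levels. Its log2 signal was 1.63, 5.25 and 3.21 in WT replicates 1, 2 and 3, and 3.62, 1.71 and 2.67 in hNAG-1 replicates 1, 2 and 3. The highest and the lowest value were both WT pools, and all hNAG-1 pools lay between them. In processed signal WT replicate 2 was at 34700 and WT replicate 1 at 3002, a 12.3-fold difference, and WT replicate 2 was 3.10-fold above the next array, hNAG-1 replicate 1. Ucp1 had a fold change on the log2 scale of -0.70 (95% interval -3.13 to 1.74, adjusted p = 0.792 in limma). It turned to 0.25 without WT replicate 2, and to 0.25 when hNAG-1 replicate 1 alone was compared with the WT pools on its slide.

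Ucp2 was lower in hNAG-1 pools with both of the probes that were measured in both genotypes. The brightest probe, A_51_P297105, read 0.54, 0.69 and 0.18 in WT replicates 1, 2 and 3 and -0.14, -0.33 and -0.33 in the hNAG-1 replicates. The 2 genotypes did not overlap, and the hNAG-1 pools lay closer together (SD 0.109) than the WT pools (SD 0.261). The log2 fold change was -0.74 with a standard error of 0.165, a 1.67-fold higher signal in WT (unadjusted p = 0.00467, adjusted p = 0.229 in limma).

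The second Ucp2 probe, A_52_P90265, read -2.06, -1.50 and -2.23 in WT and -2.61, -2.77 and -2.71 in hNAG-1, again with no overlap. Its log2 fold change in a fit over all probes was -0.77 (adjusted p = 0.283 over 31451 probes). The third, A_52_P499675, read -4.96, -5.52 and -5.56 in WT and -6.33, -6.61 and -6.25 in hNAG-1, where it was not well above background on any array. It passed the filter only through the WT arrays and so adds no support of its own. Its signal was at least 1.65-fold higher in WT, taking for each hNAG-1 array the higher of the probe's own signal and the lowest signal well above background (log2 fold change as measured -1.05, adjusted p = 0.211). Of all probes, 19.8% did not overlap between genotypes, and the Ucp2 probes are not independent, since they read the same pools. Within the slide that held both genotypes the log2 fold change of the brightest probe was -0.61 (unadjusted p = 0.0927 in limma). A fixed block for slide gives the same -0.61 by construction, since the second slide holds no WT pool (unadjusted p = 0.0540).

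Since Ucp2 is made by macrophages, it was set beside their markers. Of 10 macrophage markers 1 had a log2 fold change above 0 and 9 below 0, with a median of -0.26 (with normexp background correction -0.14, or 0.057 relative to the median of all genes), and 3 of them were lower at an unadjusted p under 0.05, beside 4.08% of all genes. These were Itgam, an integrin chain of myeloid cells (-0.37), Cd68, a lysosomal glycoprotein (-0.44), and Cd163, the haemoglobin scavenger receptor (-0.84). The other markers were Adgre1 (-0.26), Csf1r (-0.22), Mrc1 (-0.26), Lyz2 (-0.05), Fcgr1 (-0.14), C1qa (-0.37) and Cd14 (0.11). The median of the list relative to the WT mean was -0.18 to 0.15 in WT and -0.35 to -0.21 in hNAG-1, without overlap, as for Ucp2. The summed linear level of the list, in units of each array's 75th percentile, was 131 to 167 in WT and 138 to 142 in hNAG-1, with overlap, and Lyz2 made up most of that sum on every array. The part of macrophage content in the Ucp2 difference was not tested.

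**Figure D2:**
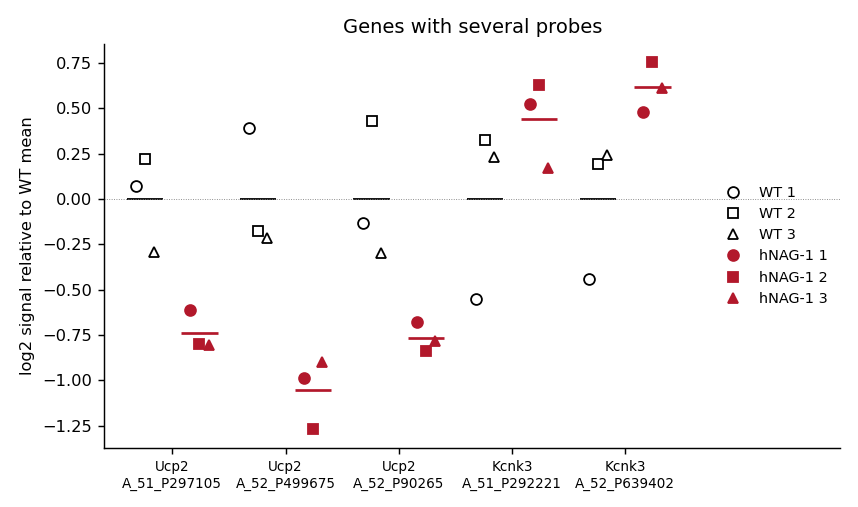
Log2 signal of the 3 Ucp2 probes and 2 Kcnk3 probes relative to each probe's WT mean, with open points for WT arrays, filled points for hNAG-1 arrays and lines for means of 3 arrays. The Ucp2 probes A_51_P297105 and A_52_P90265 lie lower in hNAG-1 without overlap, the Ucp2 probe A_52_P499675 was above background only in WT, and the Kcnk3 probe A_51_P292221 overlaps between genotypes where A_52_P639402 does not.

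Ucp3, the family member of muscle and brown fat, read -0.78, -0.42 and -0.38 in WT and 0.13, 0.22 and -0.44 in hNAG-1. The groups overlapped, because hNAG-1 replicate 3 lay within the WT values. Their means differed by 0.50 on the log2 scale (standard error 0.222, adjusted p = 0.425 in limma), and within the shared slide it was 0.65. Since Ucp3 is a gene of muscle, it was set beside markers of that tissue. Skeletal muscle markers were read in all pools at very unequal levels: the median over 10 muscle markers, relative to the WT mean, was 1.24, 0.12 and -1.28 in WT and -0.91, 1.87 and -0.48 in hNAG-1. All 10 were measured and none differed at an unadjusted p under 0.05, with 7 log2 fold changes above 0, 3 below and a median of 0.22, which was -0.91 within the shared slide. Myh4, a fast myosin, ranged from 4.02 to 7.07, Ckm, muscle creatine kinase, from -1.53 to 2.02, and Mb, myoglobin, from 0.79 to 3.96. Ucp3 was highest on hNAG-1 replicate 2, where the muscle markers were highest too, but lowest on WT replicate 1, where those markers were second highest. The part of muscle RNA in the Ucp3 values was not tested.

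Cidea, a lipid droplet protein of brown and beige adipocytes, read 4.09, 6.38 and 4.93 in WT and 5.85, 5.28 and 5.28 in hNAG-1. The hNAG-1 pools lay between the WT pools. Cidea had a fold change on the log2 scale of 0.34 (standard error 0.585, adjusted p = 0.833 in limma), and it was -0.19 without WT replicate 1 and 0.96 without WT replicate 2.

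Prdm16, a transcriptional regulator of the brown and beige program, was the steadiest member. It read -0.19, 0.01 and -0.12 in WT and -0.53, -0.20 and 0.05 in hNAG-1, and its range over the 6 arrays was 0.57, beside a median range of 0.68 over all genes. The groups overlapped, with a log2 fold change of -0.12 (95% interval -0.55 to 0.31), which was 0.028 without hNAG-1 replicate 1. Dio2, the deiodinase that turns thyroxine into active thyroid hormone, read -0.75, -1.45 and -1.80 in WT and -1.53, -2.35 and -1.51 in hNAG-1. The groups overlapped here too, and the log2 fold change was -0.46 (95% interval -1.34 to 0.41). Dio2 was highest on WT replicate 1, the array where Ucp1, Otop1 and Cidea were lowest.

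Otop1, a proton channel found in brown fat, read -4.28, -0.98 and -2.0 in WT and -1.83, -3.01 and -2.94 in hNAG-1. As for Ucp1, WT replicate 2 was highest, WT replicate 1 lowest, and the hNAG-1 pools lay between them. Its fold change on the log2 scale was -0.17 (standard error 0.875, adjusted p = 0.947 in limma), and it was 0.55 without WT replicate 2 and 0.59 within the shared slide.

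Kcnk3 makes TASK-1, a background potassium channel that is abundant in brown fat. Its brighter probe, A_52_P639402, read 0.55, 1.19 and 1.24 in WT and 1.47, 1.75 and 1.61 in hNAG-1. All hNAG-1 pools were above all WT pools, the gap between WT replicate 3 and hNAG-1 replicate 1 being small. The log2 fold change was 0.62 with a standard error of 0.216, a 1.53-fold difference (unadjusted p = 0.0300, adjusted p = 0.354 in limma). The dimmer probe, A_51_P292221, read -0.63, 0.25 and 0.16 in WT and 0.45, 0.56 and 0.10 in hNAG-1, where hNAG-1 replicate 3 overlapped the WT values (log2 fold change 0.44, adjusted p = 0.552 over all probes). Within the shared slide, where hNAG-1 has 1 pool, the log2 fold change of the brighter probe was 0.48 (unadjusted p = 0.248 in limma), and with the probes averaged it was 0.53 (unadjusted p = 0.0696).

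Cpn2 encodes the regulatory subunit of carboxypeptidase N, a plasma enzyme made by the liver, and is also used as a brown fat marker. It read -4.26, 0.40 and -3.06 in WT and -4.82, -1.89 and -4.32 in hNAG-1. Both genotypes had 1 pool far above the others, replicate 2 in each case, and the groups overlapped. WT replicate 2, at a processed signal of 1201, was 37.2-fold above hNAG-1 replicate 1, at 30.4. The log2 fold change was -1.37 (95% interval -4.78 to 2.05), and -0.02 without WT replicate 2.

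The order of the arrays separated the variable members into different patterns. Ucp1 and Otop1 had the same order over all 6 arrays, from WT replicate 1 through hNAG-1 replicates 2 and 3, WT replicate 3 and hNAG-1 replicate 1 to WT replicate 2. Cidea shared the lowest and the 2 highest arrays with them. The range of Ucp1 over the 6 arrays, 3.62 on the log2 scale, was wider than that of 97.7% of genes, and the ranges of Otop1 (3.30), Cidea (2.29) and Cpn2 (5.22) were wider than those of 96.8%, 91.1% and 99.1%.

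For the 3 members with the widest ranges, the genes most like them were found by the mean absolute difference of log2 signals over the 6 arrays, each gene taken relative to its own mean. For Ucp1, Acot11, an acyl-CoA thioesterase of brown fat, was at rank 2 of all other genes (0.32), Otop1 at rank 3 (0.39) and Cidea at rank 11. Without WT replicate 2 Otop1 was at rank 1 (0.33), Acot11 at rank 3 and Cidea at rank 39. For Otop1 the nearest were Acot11 (0.26), 9130214F15Rik (0.27) and AK041185 (0.37), and Ucp1 was at rank 5. 9130214F15Rik was well above background on 2 WT arrays and 1 hNAG-1 array, and AK041185 on 2 arrays of each genotype. Their likeness to Otop1 thus rests partly on background-level readings. All these likenesses are descriptions over 6 arrays that share their pools.

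Cpn2 followed another set of genes. Its nearest were Fetub, the liver plasma protein fetuin-B (0.13), Cyp4a31, a fatty acid hydroxylase (0.13), and Sec14l2, a lipid-binding protein (0.14), while Ucp1 was at rank 962. Without WT replicate 2 Fetub was at rank 1 (0.097), Sec14l2 at rank 7, Cyp4a31 at rank 9 and Ucp1 at rank 20138. Alb, the albumin gene of the liver, read 2.43, 7.24 and 3.76 in WT and 0.46, 5.21 and 1.03 in hNAG-1, highest on the same 2 pools as Cpn2.

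Of 8 liver genes listed 7 were measured, 1 with a log2 fold change above 0 and 6 below, none at an unadjusted p under 0.05, with a median of -2.87. That median was -1.40 with normexp background correction, -4.82 within the shared slide, -3.93 with WT replicate 1 left out and -1.31 with WT replicate 2 left out, and it became -1.67 when hNAG-1 replicate 1 and -4.32 when hNAG-1 replicate 2 was dropped. The apolipoprotein genes Apoa1 and Apoa2 ranged from -6.69 to 2.52 and from -3.84 to 4.55, Ttr, the thyroxine carrier, from -6.65 to -0.40, Ahsg, fetuin-A, from -1.58 to 6.40, and Fga, a fibrinogen chain, from -6.43 to 1.76. Each of these was highest on WT replicate 2 and second highest on hNAG-1 replicate 2. Among the hNAG-1 arrays, Fga and Ttr were well above background on only 1 each and Apoa1 on 2, so their lowest readings were background-level. The median of -4.82 within the shared slide is the reading of Fga on hNAG-1 replicate 1, at a processed signal of 9.94. Cyp2e1, which adipocytes also express, stayed between 5.95 and 6.55. The median of the list relative to the WT mean was -2.11, 2.76 and -0.78 in WT and -4.82, 0.45 and -3.82 in hNAG-1. Its summed linear level was 82.4 to 342.3 in WT and 81.8 to 123.9 in hNAG-1. Cyp2e1 was the largest part of that sum on every array but WT replicate 2, and nearly all of it on hNAG-1 replicate 1. The part of liver RNA in the Cpn2 values was not tested.

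**Figure D3:**
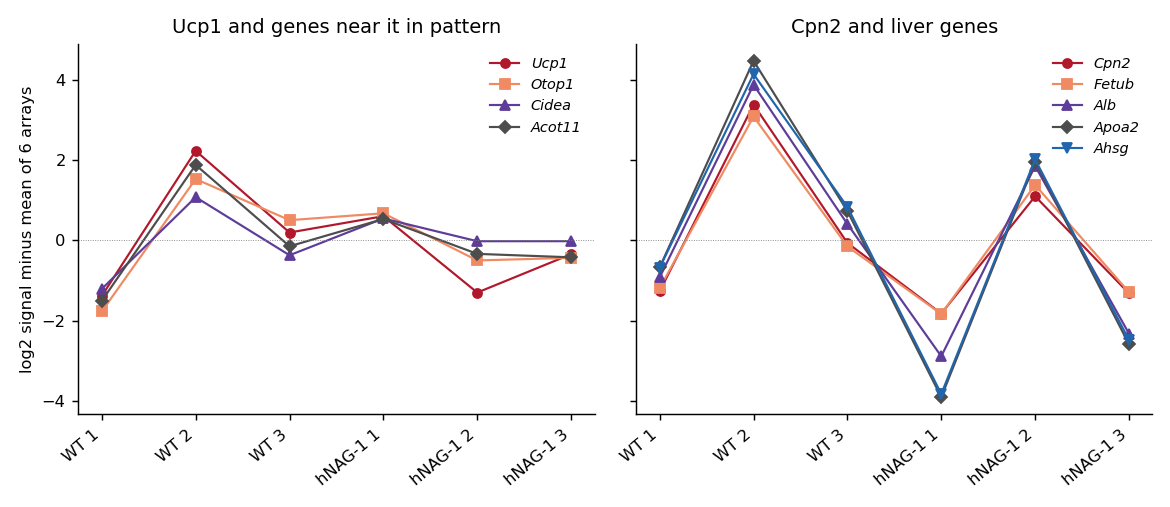
Log2 signal of single genes minus their own mean over the 6 arrays, by array, with Ucp1, Otop1, Cidea and Acot11 on the left and Cpn2, Fetub, Alb, Apoa2 and Ahsg on the right. Both sets peak on WT replicate 2, and the right-hand set has a second peak on hNAG-1 replicate 2, where Ucp1 is near its lowest.

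The promoters of the members with these patterns are shown so that the genes that varied together can be compared with those that did not. They are the 250 bases before the annotated gene start in RefSeq, build GRCm38.p6, written along the gene's strand; 7 of the 9 members had one that could be shown. Capitals mark matches, on either strand, to 3 motifs. The first is AGGTCA, a core element of nuclear receptors such as PPAR and thyroid receptors. The second is TGACG, the core of the cyclic AMP response element. The third is TATAAA, the TATA box. No match overlaps another in these 4 promoters.
Ucp1, chr8:83290098-83290347, plus strand: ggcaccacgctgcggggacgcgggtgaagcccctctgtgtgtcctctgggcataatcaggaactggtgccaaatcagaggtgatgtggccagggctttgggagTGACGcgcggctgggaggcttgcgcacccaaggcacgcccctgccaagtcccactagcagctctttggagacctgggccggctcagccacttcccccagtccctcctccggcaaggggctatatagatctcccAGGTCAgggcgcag
Otop1, chr5:38277154-38277403, plus strand: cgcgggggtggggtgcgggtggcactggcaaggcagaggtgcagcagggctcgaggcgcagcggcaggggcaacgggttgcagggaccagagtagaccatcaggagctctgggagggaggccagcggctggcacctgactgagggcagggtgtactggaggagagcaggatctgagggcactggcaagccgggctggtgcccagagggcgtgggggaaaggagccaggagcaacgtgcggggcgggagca
Cpn2, chr16:30267533-30267782, minus strand: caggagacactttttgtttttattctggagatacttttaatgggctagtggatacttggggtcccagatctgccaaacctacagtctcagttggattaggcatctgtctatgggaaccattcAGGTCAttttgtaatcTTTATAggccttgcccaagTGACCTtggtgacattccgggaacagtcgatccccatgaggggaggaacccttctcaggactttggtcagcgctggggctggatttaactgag
Ucp2, chr7:100493108-100493357, plus strand: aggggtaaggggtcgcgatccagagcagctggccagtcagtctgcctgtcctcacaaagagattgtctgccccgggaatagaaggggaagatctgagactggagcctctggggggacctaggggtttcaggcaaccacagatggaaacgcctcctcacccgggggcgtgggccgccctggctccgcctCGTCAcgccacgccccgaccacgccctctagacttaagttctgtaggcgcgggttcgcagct

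In the Ucp1 promoter AGGTCA began 14 bases and TGACG 147 bases before the start. Otop1, the member closest to Ucp1 in pattern, held none of the 3 motifs in this window. A further motif that was searched, GTTAAT of the liver factor HNF1, was in none of the 4 promoters shown. Cpn2 held AGGTCA at 128 and 93 bases and TATAAA at 112 bases before the start, and Ucp2 held TGACG at 62 bases. Over 32851 mouse promoters of this length 14.0% held AGGTCA, 17.8% TGACG, 12.4% TATAAA and 6.4% the HNF1 motif, so each of these is a common match. The G and C content was 64.8% for Ucp1, 70.0% for Otop1, 63.6% for Ucp2 and 47.6% for Cpn2, beside a median of 52.4%.

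Among the other genes of heat production none passed the adjusted test, and their counts at an unadjusted p under 0.05 stand beside 8.46% of all genes higher, 4.08% lower and 12.5% in either direction. Of 20 listed regulators of brown fat 19 were measured, 11 with a log2 fold change above 0 and 8 below. Over all 21057 genes, 12413 were above 0 and 8644 below. The median of the regulators was 0.09. At an unadjusted p under 0.05, 2 were higher and 0 lower. Ppargc1a, the coactivator PGC-1alpha that drives mitochondrial and thermogenic genes, read -0.90, -0.77 and -1.25 in WT and -0.34, -0.22 and -0.40 in hNAG-1, with no overlap (log2 fold change 0.65, standard error 0.159, adjusted p = 0.249 in limma). Esrra, its partner receptor ERR-alpha, was at 0.59 (standard error 0.191, adjusted p = 0.326), also without overlap. Klf11, a transcription factor, was at -0.29 (adjusted p = 0.440 in limma), and it too did not overlap between genotypes. Further regulators in the list, in both directions, did not overlap either. Over all genes, 13.7% did not overlap with hNAG-1 higher and 6.57% with hNAG-1 lower.

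The effector genes of brown fat were together highest on WT replicate 2, like Ucp1. The liver genes other than Cyp2e1 were also highest on that array. Among the effectors, Nrg4 and Elovl3 were instead highest on hNAG-1 replicate 1 and Letmd1 on hNAG-1 replicate 3, while the other measured effectors peaked on WT replicate 2. Of 16 listed 14 were measured, 6 with a log2 fold change above 0 and 8 below, none at an unadjusted p under 0.05, with a median of -0.12. Their median relative to the WT mean was -0.58, 1.11 and -0.47 in WT and 0.03, 0.06 and -0.16 in hNAG-1, so WT replicate 2 stood above the other 5 arrays; without it the median log2 fold change of the list was 0.45. The genes with the largest moderated t were Nrg4, a secreted factor of brown fat (0.60), Eva1a (-0.82) and Letmd1, a mitochondrial protein (0.22).

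Of 10 beige markers 9 were measured, 7 with a log2 fold change above 0 and 2 below, with a median of 0.29; 2 were higher and 1 lower at an unadjusted p under 0.05. Slc36a2, a proton-coupled amino acid transporter, read 4.58, 4.28 and 4.93 in WT and 5.60, 5.64 and 5.25 in hNAG-1 (log2 fold change 0.90, standard error 0.208, adjusted p = 0.235 in limma). P2rx5, an ATP-gated ion channel, read -2.13, -1.45 and -2.17 in WT and -0.58, -0.78 and -1.13 in hNAG-1 (1.09, standard error 0.253, adjusted p = 0.235). Klhl13, a ubiquitin ligase adaptor, went the other way at -0.52 (standard error 0.126, adjusted p = 0.246). Of the 9 measured, only these 3 did not overlap between genotypes, and they were named for having the largest moderated t. Over all genes, 20.2% did not overlap. The list median was -0.05 within the shared slide, -0.04 without hNAG-1 replicate 2 and -0.31 with normexp background correction.

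Among 16 genes of sympathetic and thyroid input, all measured, 6 had a log2 fold change above 0 and 10 below. Their median was -0.13, but -0.04 with normexp background correction. At an unadjusted p under 0.05, 1 gene was higher and 1 lower. The higher one was Prkaca, the catalytic subunit of protein kinase A (0.50, adjusted p = 0.328 in limma). Mapk14, p38 alpha, which relays the signal to Ucp1 transcription, was at 0.29 (adjusted p = 0.413).

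Heat can also be made without UCP1 by futile cycles of creatine, calcium and proton leak. Of 11 such genes 10 were measured, 3 with a log2 fold change above 0 and 7 below, with a median of -0.11; 1 was higher and 2 lower at an unadjusted p under 0.05. Alpl, the phosphatase TNAP of the creatine cycle, read 0.38, 0.33 and 0.16 in WT and -1.13, -1.05 and -0.43 in hNAG-1 (log2 fold change -1.16, standard error 0.213, adjusted p = 0.193 in limma). Slc6a8, the creatine transporter, was at -0.41 (adjusted p = 0.398). Slc25a5, an ADP/ATP carrier through which protons can leak, was at 0.45 (adjusted p = 0.277).

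The 8 mitochondrial carriers related to the uncoupling proteins were all measured, 5 with a log2 fold change above 0 and 3 below. Their median was 0.15, but 0.065 with quantile normalization and 0.33 with normexp background correction. At an unadjusted p under 0.05, 2 were higher and 0 lower. Slc25a1, the citrate carrier that exports acetyl units for fatty acid synthesis, read 4.39, 4.59 and 4.66 in WT and 6.14, 6.25 and 5.73 in hNAG-1 (log2 fold change 1.5, standard error 0.174, adjusted p = 0.167 in limma). Slc25a10, the dicarboxylate carrier, was at 1.24 (standard error 0.337, adjusted p = 0.274). Slc25a30 was at -0.37 (adjusted p = 0.522).

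**Figure D4:**
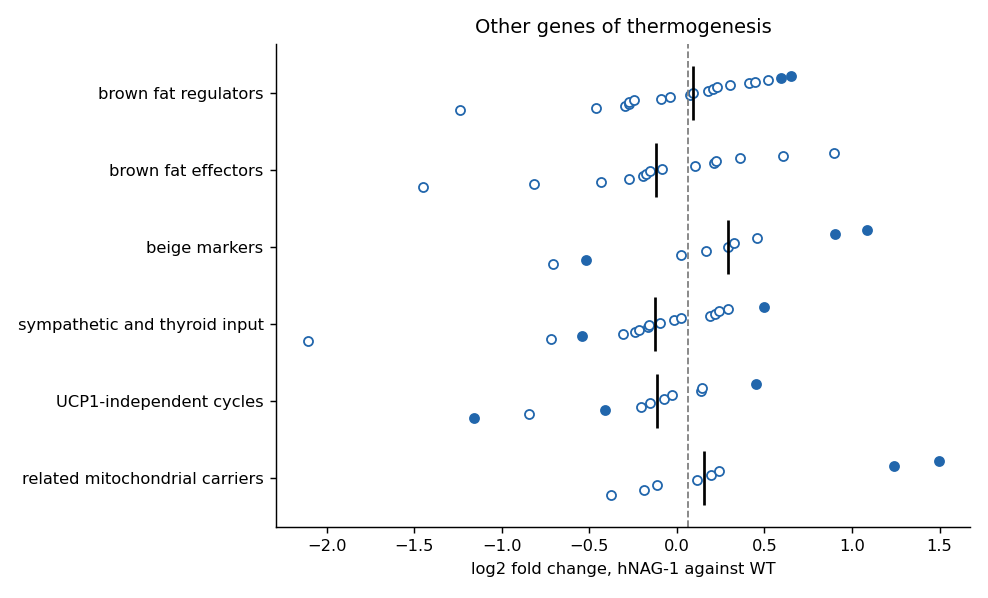
Log2 fold change (hNAG-1 against WT) of the other genes of heat production, 1 point a gene, filled where the unadjusted p was under 0.05, with a black line at each list's median and a dashed line at the median of all genes, 0.06. Each list has genes on both sides of 0, and filled points number from 0 for brown fat effectors to 3 for beige markers and for UCP1-independent cycles.

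The remaining cell type lists were measured to show what else the pools held. Of 8 white adipocyte genes 6 had a log2 fold change above 0 and 2 below (median 0.25, but 0.034 with quantile normalization and 0.47 with normexp background correction), with Retn, resistin, at 0.64, Fabp4, the fatty acid binding protein, at 0.39 and Lep, leptin, at -0.82; 2 were higher and 0 lower at an unadjusted p under 0.05. All 9 lymphocyte markers were above 0 (median 0.47, but -0.25 with normexp background correction and 0.0071 within the shared slide), led by Ms4a1, which marks B cells (0.79), Cd8a (0.77) and Lck (0.59), with none at an unadjusted p under 0.05; hNAG-1 replicate 2 was highest. Of 8 endothelial markers 2 were above 0 and 6 below (median -0.11), but 0.034 with normexp background correction, with Pecam1 at -0.45, Tek at -0.23 and Tie1 at -0.31 and none at an unadjusted p under 0.05.

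Across 17 alternative settings the log2 fold change of Ucp2 stayed below 0 in all 17, from -0.88 to -0.60, and that of Kcnk3 above 0 in all 17, from 0.40 to 0.75. Ucp3 (0.37 to 0.70), Dio2 (-0.70 to -0.17) and Cpn2 (-2.51 to -0.02) also kept their direction in all 17. Ucp1, Otop1, Cidea and Prdm16 changed direction in 3, 6, 1 and 1 of them.

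**Figure D5:**
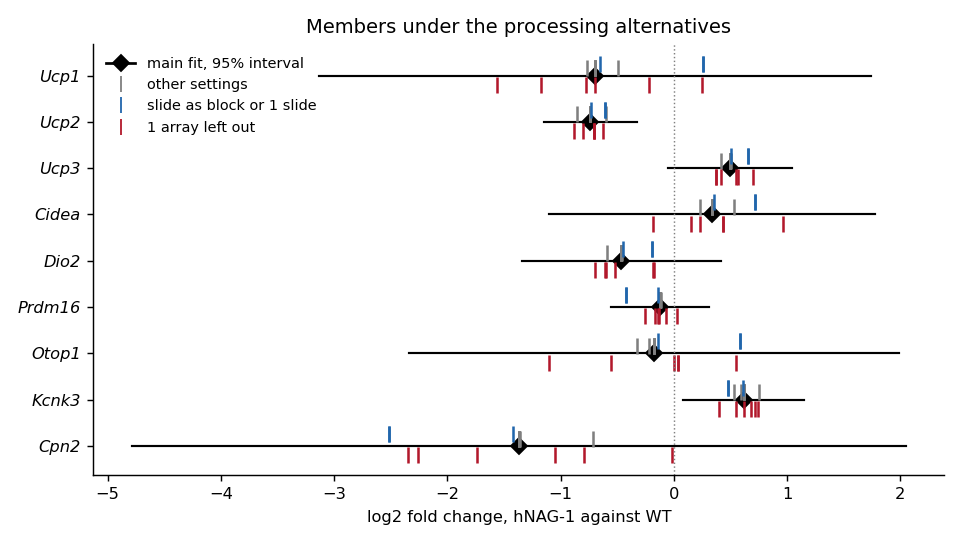
Log2 fold change of each member (hNAG-1 against WT) in the main comparison, with its 95% interval, and under the 17 alternatives, shown as ticks for settings that use the slide, that leave out 1 array and that change anything else. The intervals of Ucp2 and Kcnk3 do not reach 0 before adjustment, and the ticks of Ucp1 and Otop1 fall on both sides of 0.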

How the data were processed

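RNA from abdominal WAT was labelled with Cy3 and hybridised to single-colour Agilent mouse arrays, while the paper's methods name an Affymetrix array. The authors deposited the scanner output of Agilent Feature Extraction 9.5 (submitters' processing notes), whose processed signal is an intensity after background subtraction, not normalized between arrays.

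Control spots (1639) and spots flagged as outliers were dropped, repeat spots were averaged, and the 75th percentile of each array was subtracted from log2 of the signal. A probe was kept if well above background on 3 or more of 6 arrays (31451 probes), and the brightest represented a gene. The genotypes were tested in limma 3.58.1 under R 4.3.3 (lmFit, eBayes; two-sided), and p-values were adjusted by Benjamini-Hochberg over all genes at a threshold of 0.05; the fit was tested on simulated data. Named genes are all members, the 3 genes with the largest moderated t in each list, markers set beside a member, and the 3 genes most like each of the 3 most variable members; some genes that this rule names are not reported here. Members and lists were chosen with earlier results of these data known. The pools are of different mice, so p-values measure the spread between pools. Alternatives were quantile normalization, normexp (offset 50), other probe filters and summaries, a trended robust variance model, slide and replicate blocks, and each array left out.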

Additional observations from a re-analysis of the deposited data

How the results depend on the processing

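No member passed the adjusted threshold under any of the 17 alternatives, the adjusted p of Ucp2 running from 0.0823 to 0.90 (the lowest with an intensity trend and robust variances, where limma called 130 of all genes against 0 otherwise). The number of members at an unadjusted p under 0.05, 2 in the main comparison, was 1 when a gene's probes were averaged, 0 with slide as a fixed block, 0 within the slide holding both genotypes, and 1 to 3 with 1 array left out, being 1 without hNAG-1 replicate 2 and 3 without WT replicate 2. The cause was not tested. Over all genes that number was 2641, against 436 with normexp, 1624 with the fixed slide block and 1305 within the slide, and, with 1 array left out, 1611 without hNAG-1 replicate 2 to 3224 without WT replicate 3, with 1738 without WT replicate 1.

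Ucp1 reversed to 0.25 with the fixed slide block, 0.25 within the slide and 0.25 without WT replicate 2. Otop1 reversed to 0.59, 0.59 and 0.55 under the same settings, and to 0.034, 0.032 and 7.7e-05 without WT replicate 3, hNAG-1 replicate 2 and hNAG-1 replicate 3. Cidea reversed to -0.19 without WT replicate 1 and Prdm16 to 0.028 without hNAG-1 replicate 1. With 1 array left out Ucp1 ranged from -1.56 to 0.25, Otop1 from -1.10 to 0.55, Cidea from -0.19 to 0.96 and Prdm16 from -0.26 to 0.028. The median over members ranged from -0.56 to 0.25 with 1 array left out, and was 0.25 with the slide block and within the slide. Normexp put the median of all genes at -0.19; relative to it Ucp2 was at -0.41 and Kcnk3 at 0.95.

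Same-numbered arrays of the genotypes did not deviate together in each pair (correlations 0.098, 0.51 and 0.095), so the numbers were not taken as pairing. With the replicate number as a block the count of members at the unadjusted threshold was 3, Cpn2 being added, and no adjusted call changed. The genes most like Ucp1, Otop1 and Cpn2 without WT replicate 2 were looked up after the data had been seen.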
